A study of Mus musculus with 2 samples.

Results

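FGF4 to ERK signalling was followed through 10 genes, a list set by name with no threshold on their values, though with earlier results of these data known: the ligand Fgf4, its receptors Fgfr1 and Fgfr2, the feedback inhibitors Dusp6, Spry2, Spry4 and Spred1, and the transcription factors Etv4, Etv5 and Egr1. All 10 were found among the 26127 genes quantified by RNA-seq in mouse embryonic stem (ES) cells, 1 WT line and 1 G34R line. WT cells were unmodified 129S1/SvImJ ES cells with normal copies of H3f3a and H3f3b, the genes of histone H3.3. In G34R cells 1 H3f3a copy had been targeted, so that after Cre recombination it expressed a minigene of H3.3 with glycine 34 replaced by arginine from the endogenous H3f3a promoter, while the other H3f3a copy and both H3f3b copies were normal. Both lines were kept below passage 20 in medium with 15% serum and leukaemia inhibitory factor (LIF), and 500 ng of total RNA went into each library. The labels name no treatment or time point.

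ES cells secrete Fgf4, which binds FGF receptors on the same cells and, through Ras, Raf and Mek kinases, leads to phosphorylation of the ERK kinases. Active ERK raises transcription of early response genes and of its own inhibitors, so the RNA of Dusp, Spry, Spred and Etv genes is widely used as a readout of the pathway. In ES cells and the early embryo FGF4 to ERK signalling is known for moving cells out of naive pluripotency and for its role in primitive endoderm formation. ERK activity itself is a matter of protein phosphorylation and was not measured here.

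Expression was given as RPKM (reads per kilobase of transcript, scaled to the size of the library), 1 library per cell line, so no value has a replicate and no difference between the lines could be tested. Ratios are log2 (G34R/WT RPKM) with 0.01 RPKM added to both values, and 10728 genes with at least 1 RPKM in 1 library were compared. In short genes with 1 exon, low RPKM values came in steps of 1 read, and from the step size depths of about 88350000 reads in WT and 72750000 reads in G34R cells were estimated. Reads per gene follow from these depths and the annotated exon length. The 95% intervals below, exact binomial for ratios and exact Poisson for levels, rest on these estimated reads and cover counting error only, not the spread between cultures or clones. In bulk RNA, fewer cells of a type and less RNA per cell cannot be told apart. The pluripotency genes Pou5f1 (194.34 RPKM in WT, 189.46 in G34R) and Sox2 (73.83 and 75.05 RPKM) were high in both libraries. Not all such genes were alike in both, since 4 of 11 were more than 2-fold lower in G34R cells and 0 more than 2-fold higher. A value per gene cannot tell H3f3a alleles apart, so the genotype was not checked here.

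Of the 10 members, 3 were more than 2-fold higher in G34R cells (Dusp6, Etv4 and Spry2) and 0 were more than 2-fold lower. Among all compared genes 4.07% were more than 2-fold higher and 6.35% more than 2-fold lower. The median log2 ratio was 0.60 over the members, against -0.05 over all compared genes. The differences lay mainly downstream: the 4 feedback inhibitors were all higher in G34R cells, the ligand was somewhat higher, the receptors and Egr1 had nearly the same RPKM in both, and Etv4 and Etv5 went in opposite directions. All members had at least 1 RPKM in both libraries, so none was compared only because it was high in 1 of them.

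**Figure D1:**
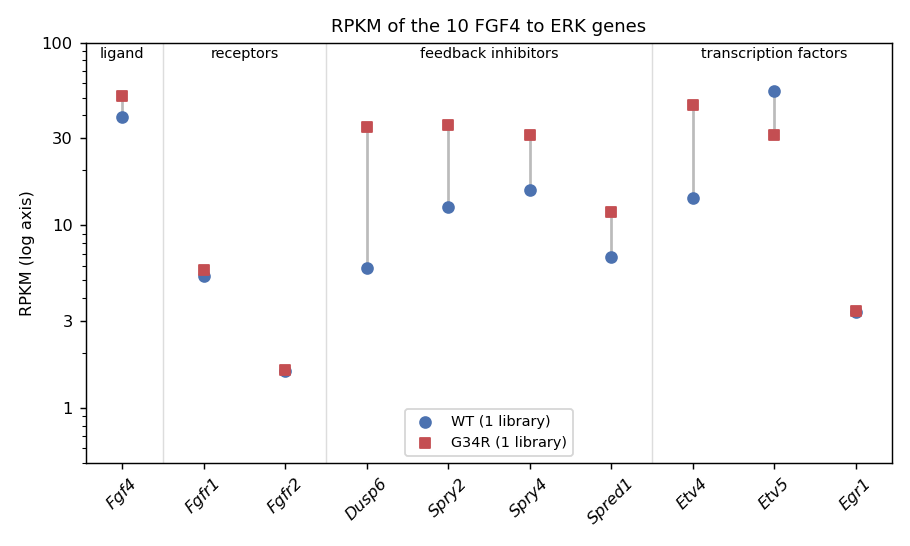
RPKM (log axis) of the 10 genes in the WT library (circles) and the G34R library (squares), grouped by role, with a grey line joining both values of a gene. Dusp6, Spry2, Spry4, Spred1 and Etv4 are higher in G34R cells, Etv5 is lower, and the points of Fgfr1, Fgfr2 and Egr1 nearly coincide.

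Dusp6, a cytoplasmic phosphatase that removes phosphate from ERK and is itself induced by ERK, differed most between the lines. Its level was 5.87 RPKM in WT and 34.44 RPKM in G34R cells, from about 1450 and 7005 reads. This was a 5.86-fold higher value in G34R cells, a log2 ratio of 2.55 (counting interval 2.47 to 2.64). Dusp6 ranked 43 of the 10728 compared genes when ordered from the highest ratio down. In mm9 the gene (ENSMUSG00000019960.6) lies on the plus strand of chromosome 10 from 98725865 to 98730122 and has 3 exons.

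Spry2 and Spry4 encode Sprouty proteins, which are induced by receptor tyrosine kinase signalling and restrain it upstream of ERK. Spry2 (minus strand of chromosome 14 in mm9, 106291166 to 106296036, 2 exons) had 12.55 RPKM in WT and 35.26 RPKM in G34R cells. Its log2 ratio was 1.49 (1.42 to 1.56), which placed it at rank 192 from the top. Spry4 (minus strand of chromosome 18, 38745922 to 38760922, 2 exons) had 15.69 and 31.23 RPKM. With a log2 ratio of 0.99 it fell just short of the 2-fold line, which lay inside its counting interval of 0.95 to 1.04.

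Spred1, a Sprouty-related protein that holds back the activation of Raf by Ras, was also higher in G34R cells, with 6.67 RPKM in WT and 11.85 RPKM in G34R cells. The log2 ratio was 0.83 (0.77 to 0.89), a 1.78-fold difference, which placed it at rank 644. Spred1 lies on the plus strand of chromosome 2, from 116947110 to 117008015. Summed over Dusp6, Spry2, Spry4 and Spred1, the feedback inhibitors reached 40.78 RPKM in WT and 112.78 in G34R cells, a 2.77-fold higher sum.

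Etv4 and Etv5 encode ETS transcription factors of the Pea3 group, which are induced by FGF signalling in many embryonic tissues. Etv4 (minus strand of chromosome 11, 101631056 to 101646685) stood at 14.10 RPKM in WT and 45.33 in G34R cells, from about 3867 and 10236 reads, with a log2 ratio of 1.68 (1.63 to 1.74) and rank 136. Etv5 (minus strand of chromosome 16, 22381382 to 22439792) had 54.29 RPKM in WT and 31.09 RPKM in G34R cells, from about 19680 and 9280 reads. Its log2 ratio was -0.80 (-0.84 to -0.77), a 1.75-fold lower value, and it was the only member of the 10 that was lower in G34R cells. Of all compared genes, 8.86% had a ratio as low or lower. The gap between Etv4 and Etv5 was far larger than counting error, since their intervals lay on opposite sides of 0.

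Egr1, a zinc finger transcription factor and a classical immediate early target of ERK, did not share the higher values of the feedback inhibitors. Its level was 3.37 RPKM in WT and 3.40 in G34R cells, and its log2 ratio of 0.01 (-0.13 to 0.15) was within counting error of 0. Egr1 lies on the plus strand of chromosome 18 from 35020861 to 35024638.

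Fgf4 was among the most abundant members in both lines, with 39.21 RPKM in WT and 50.97 RPKM in G34R cells. The log2 ratio of 0.38 (0.34 to 0.42) lay outside counting error but was modest, since 41.6% of all compared genes had a ratio at least as far from 0. Fgf4 lies on the plus strand of chromosome 7 from 152047291 to 152051148 and has 3 exons. Fgfr1, the main FGF receptor of ES cells, had 5.31 and 5.68 RPKM in WT and G34R cells, a log2 ratio of 0.10 (0.03 to 0.16). Fgfr2 had 1.59 and 1.62 RPKM, a log2 ratio of 0.03 (-0.10 to 0.16). Neither receptor differed by more than 1.07-fold. The Fgfr2 row covers 3.01 Mb of chromosome 7 (137305965 to 140315033, minus strand), because 1 annotated transcript reaches far beyond the others and isoforms were merged. Fgfr1 lies on chromosome 8 (26624126 to 26686186, plus strand), where the median log2 ratio of the 595 compared genes was 0.36, and centred on that median its log2 ratio was -0.26. The 13 compared genes within 500 kb of Fgfr1 had a median log2 ratio of -0.31, and 4 of them were above Fgfr1. The higher median of the chromosome was thus not seen near Fgfr1.

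**Figure D2:**
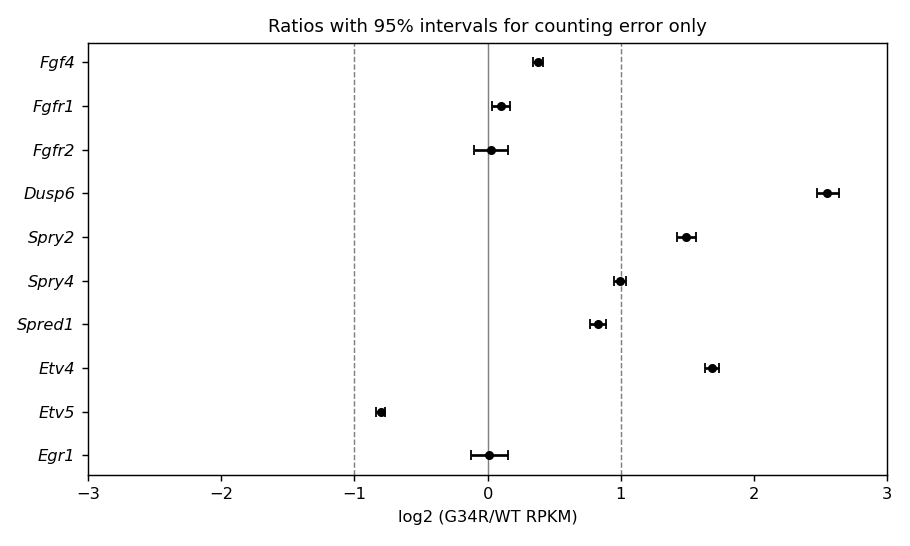
Log2 (G34R/WT RPKM) of each gene, with 95% intervals for counting error only; dashed lines mark 2-fold. Dusp6, Spry2 and Etv4 lie beyond the upper line, Spry4 lies on it, and Etv5 is the only gene whose interval lies wholly below 0.

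Since RPKM is scaled for transcript length, the levels of the members can be set in order within a library. In WT cells the order was Etv5, Fgf4, Spry4, Etv4, Spry2, Spred1, Dusp6, Fgfr1, Egr1 and Fgfr2, from 54.29 down to 1.59 RPKM, and no neighbours in this order had overlapping counting intervals. In G34R cells Fgf4 came first and Etv4 second, followed by Spry2 and Dusp6, whose counting intervals overlapped (34.3 to 36.2 and 33.6 to 35.3 RPKM). The intervals of Spry4 and Etv5 overlapped as well (30.6 to 31.8 and 30.5 to 31.7 RPKM). Spred1, Fgfr1, Egr1 and Fgfr2 followed. Dusp6 thus stood at place 7 in WT and place 4 in G34R cells, and Etv5 at place 1 in WT and place 6 in G34R cells. Without replicate libraries it cannot be said which of these steps exceed the spread between cultures.

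**Figure D3:**
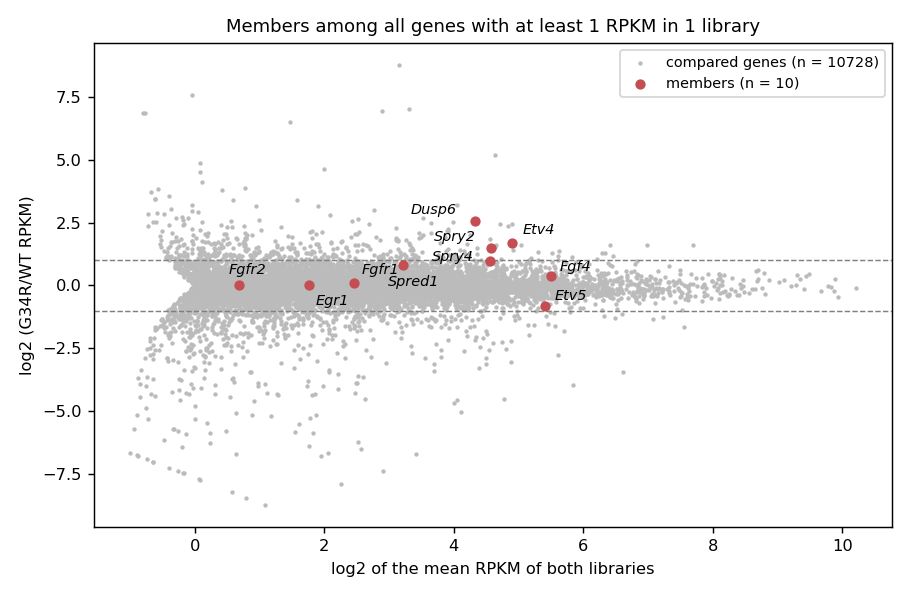
Log2 (G34R/WT RPKM) against the log2 of the mean RPKM of both libraries for all 10728 compared genes (grey) and the 10 members (red); dashed lines mark 2-fold. Dusp6, Etv4 and Spry2 lie above the bulk of genes of like abundance, and Fgfr1, Fgfr2 and Egr1 lie within it.

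Paralogues of the members did not all share their direction. Of the other Sprouty genes Spry1 was lower in G34R cells (4.31 RPKM in WT, 2.87 in G34R), while Spry3 was not analysed here. Of the summed RPKM of Spry1, Spry2 and Spry4, Spry2 made up 38.6% in WT and 50.8% in G34R. The sum itself was 2.13-fold higher in G34R cells (32.55 and 69.36 RPKM). Spred2, the paralogue of Spred1, had 6.03 and 9.21 RPKM, so both Spred genes above 1 RPKM were higher in G34R cells.

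Among the phosphatases with a preference for ERK, Dusp9 was the most abundant in WT cells and was lower in G34R cells, with 38.55 and 29.01 RPKM. Dusp7 had 2.53 and 4.05 RPKM. Of the summed RPKM of Dusp6, Dusp7 and Dusp9, Dusp6 thus made up 12.5% in WT and 51.0% in G34R. The sum was 46.95 RPKM in WT and 67.50 RPKM in G34R cells, 1.44-fold higher, a much smaller difference than that of Dusp6 alone.

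The Pea3 group showed an exchange of the leading gene at a similar sum. Together Etv1, Etv4 and Etv5 had 69.42 RPKM in WT and 77.73 RPKM in G34R cells, a 1.12-fold difference. Etv4 made up 20.3% of this sum in WT and 58.3% in G34R cells. The ratio of Etv5 to Etv4 RPKM was 3.85 in WT and 0.686 in G34R cells. Etv1 was scarce in both (1.03 and 1.31 RPKM). In the Egr family Egr1 was the only gene above 1 RPKM. Of the FGF receptors Fgfr3 and Fgfr4 stayed below 1 RPKM in both libraries, and Fgfr1 made up 69.1% of the summed receptor RPKM in WT and 63.0% in G34R cells.

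**Figure D4:**
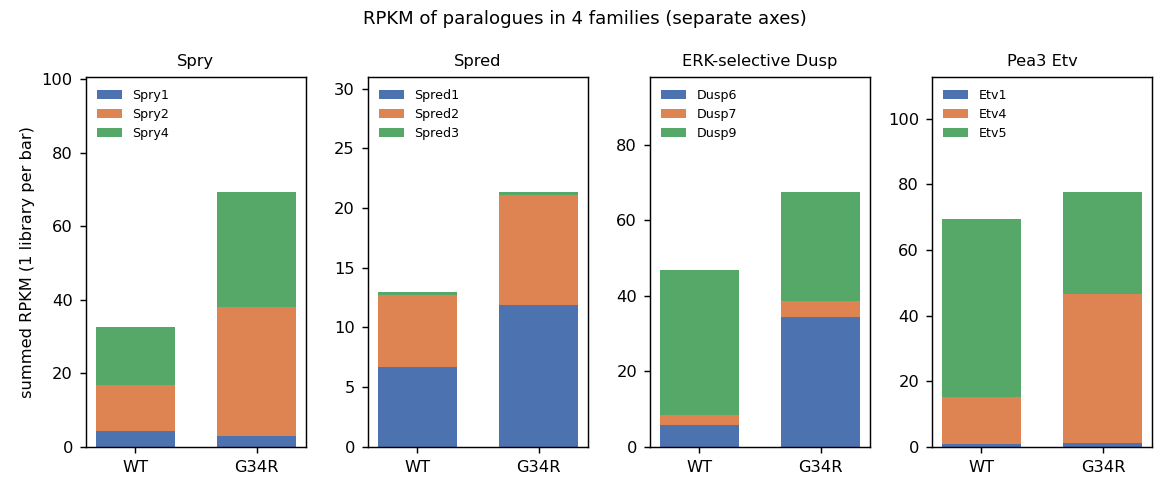
Summed RPKM of paralogues in 4 families, 1 bar per library, with a separate axis from 0 for each family. In G34R cells the Dusp6 part of the Dusp bar and the Etv4 part of the Etv bar are larger and the Dusp9 and Etv5 parts smaller, and the Etv bars have similar heights (69.42 and 77.73 RPKM).

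Other genes of the pathway were read from 5 lists by role. Of 59 such genes with at least 1 RPKM in 1 library, 7 (11.9%) were more than 2-fold higher and 2 (3.39%) more than 2-fold lower in G34R cells. Among all compared genes these shares were 4.07% and 6.35%. Some of the 7, named below, reached 1 RPKM only in G34R cells. The median log2 ratio of the 59 genes was 0.19. The 2 lower genes were both FGF ligands. Fgf15 had 3.70 RPKM in WT and 0.22 RPKM in G34R cells (log2 ratio -4.01), and could only be counted as lower because it reached 1 RPKM in WT cells alone. Fgf17 had 8.73 and 2.81 RPKM (log2 ratio -1.63). The other 15 listed ligands were below 1 RPKM in both lines, so Fgf4 had the highest RPKM of the listed ligands in each library.

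Of 23 compared genes of the Ras to ERK cascade, 0 were beyond 2-fold in either direction. Among all compared genes 4.07% were more than 2-fold higher and 6.35% more than 2-fold lower, so 0 of 23 was near these shares. The log2 ratios of the 23 genes were above 0 for 11 and below 0 for 12, with a median of -0.0025. Of all 10728 compared genes, 4824 were above 0 and 5877 below. The 23 ratios ranged from -0.39 for Braf to 0.71 for the adaptor Shc1 (8.91 and 14.62 RPKM). Nras had 19.07 RPKM in WT and 17.68 in G34R cells, and Hras1 8.79 and 7.55. The kinases Araf (3.68 and 2.99 RPKM) and Braf (3.97 and 3.03) had slightly lower values in G34R cells. Of the Mek genes, Map2k1 had 22.71 and 22.67 RPKM and Map2k2 9.58 and 12.11. Mapk3, which encodes an ERK kinase, had 6.80 and 11.00 RPKM, a log2 ratio of 0.69. The adaptor Gab1 was the most abundant gene of the list (40 and 47.06 RPKM). Among 7 compared receptors, coreceptors and heparan sulphate enzymes other than the members, 0 were beyond 2-fold, also near the shares of all compared genes. The most abundant was the heparan sulphate proteoglycan Sdc4, with 16.64 and 24.49 RPKM.

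Of 10 other compared feedback inhibitors, 3 were more than 2-fold higher in G34R cells and 0 more than 2-fold lower, against 4.07% and 6.35% of all compared genes. The median log2 ratio of the 10 was 0.47. The 3 higher genes were Dusp1 (6.43 RPKM in WT, 21.08 in G34R), Dusp4 (1.47 and 5.54) and Dusp5 (1.46 and 4.71), which encode nuclear phosphatases of MAP kinases. Of these, Dusp1 and Dusp4 also act on the stress kinases p38 and JNK. Dusp4 lies on chromosome 8, and with the median of that chromosome subtracted its log2 ratio was 1.55. Dusp9, the most abundant of the list, and Spry1 had lower values in G34R cells, so the direction was not shared by all inhibitors.

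Of 17 other compared ERK responsive genes, 4 were more than 2-fold higher and 0 more than 2-fold lower in G34R cells, against 4.07% and 6.35% of all compared genes. The median log2 ratio of the 17 was 0.65. Phlda1 had 0.72 RPKM in WT and 3.33 in G34R cells, Hmga2 0.51 and 1.71, and Jun 0.73 and 1.82. These 3 genes, and 2 others of the list, reached 1 RPKM only in G34R cells and could therefore only be counted as higher. The median of 0.65 includes these 5 genes, so it partly reflects the filter. Of the 4, Junb alone had at least 1 RPKM in both libraries (8.83 and 17.71 RPKM, a log2 ratio of 1.0). By the mean of both libraries the most abundant of the list was Ier2 (21.68 and 37.20 RPKM). In WT cells Ccnd1, which encodes cyclin D1, was level with it, and it was lower in G34R cells (21.80 and 15.97 RPKM). Junb and Ier2 lie on chromosome 8, and with its median log2 ratio of 0.36 subtracted they had log2 ratios of 0.65 and 0.42.

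**Figure D5:**
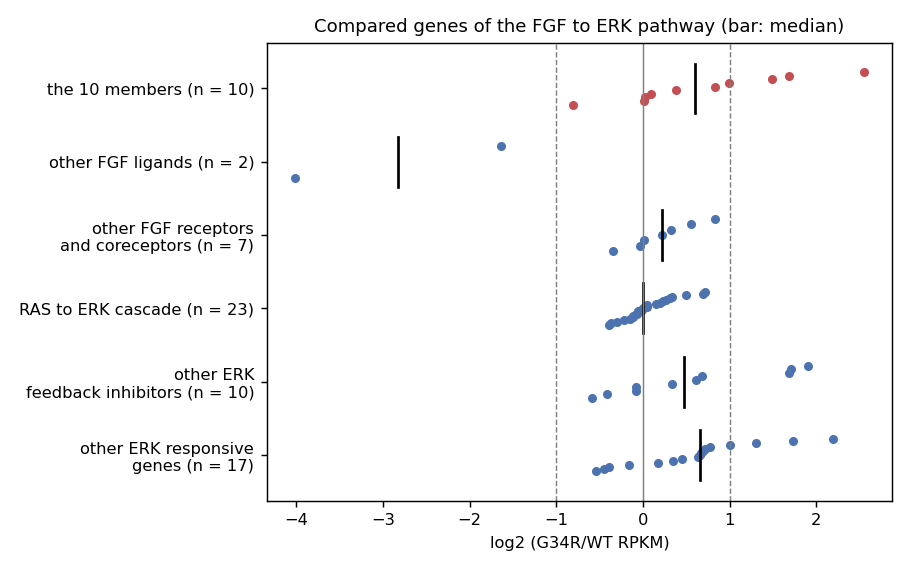
Log2 (G34R/WT RPKM) of every compared gene in the lists by role (points), with the median of each list (bar); dashed lines mark 2-fold. The 23 genes of the Ras to ERK cascade all lie between -0.39 and 0.71, while feedback inhibitors and ERK responsive genes reach 1.91 and 2.19 and the 2 other FGF ligands lie below -1. The gene at 2.19 (Phlda1) reached 1 RPKM only in G34R cells and the lowest ligand (Fgf15) only in WT cells, so the filter fixed their direction.

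The ratios of the members were set beside those of genes whose lower coordinate lay within 500 kb of them. Of 91 such compared neighbours, 2 were more than 2-fold higher and 6 more than 2-fold lower in G34R cells, against 4.07% and 6.35% of all compared genes. The 6 of 91 lower neighbours were thus near the share of all genes. The median log2 ratio of the neighbours was -0.08. Of the 91, 18 belong to the Fgfr2 row, whose 3.01 Mb span they lie in or near, so many of them are farther than 500 kb from most Fgfr2 transcripts. No neighbour of Dusp6 (3 genes, up to 1.02), Spry2 (2 genes), Spry4 (5 genes), Spred1 (1 gene) or Etv4 (23 genes, up to 1.15) had a ratio as high as the member. The highest neighbour of Etv4, Cntd1 (0.45 and 1.01 RPKM), reached 1 RPKM only in G34R cells and could only be counted as higher. Among the lower neighbours, Trim52 (1.69 and 0.72 RPKM) and Ifi35 (1.18 and 0.43 RPKM) reached it only in WT cells. Around Etv5, 8 neighbours had a median log2 ratio of -0.43, and 1 of them was lower still (-1.09), so the lower value of Etv5 lay in a neighbourhood with mainly lower values. On chromosome 7 the next compared genes beyond Fgf4 are Fgf15, Oraov1 and Ccnd1, whose lower coordinates lie 35.1, 53.7 and 68.5 kb from that of Fgf4. All 3 were lower in G34R cells, Oraov1 with 1.02 and 0.69 RPKM. The 3 compared neighbours farther away were higher, with log2 ratios of 0.21 (Cttn), 0.35 (Ppfia1) and 0.76 (Tpcn2), the last above that of Fgf4. Fgf15 and Oraov1 reached 1 RPKM only in WT cells, and Tpcn2 (0.72 and 1.23 RPKM) only in G34R cells. The filter thus fixed the direction of Fgf15, Oraov1 and Tpcn2. The neighbours of Fgf4 were named after their values were seen.

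Promoter sequence was available from RefSeq (GRCm38.p6, a later assembly than the mm9 of the expression values) for 6 members in 7 windows of 250 bases before to 50 bases after a transcription start. Fgfr1, Spry4, Etv4 and Egr1 are not among them. The sites TGAATGAA and TGAATGGA of the repressor Capicua, the ETS site CCGGAAGT, the AP-1 site TGANTCA, the cyclic AMP response element TGACGTCA and the CArG box of serum response factor were searched on both strands. Other forms of these sites were not searched, so a site of the same factor can be present where none was found. None of these exact sequences was found in the 7 windows. They occur in 1.30%, 1.21%, 3.89%, 7.81%, 1.79% and 1.63% of 32851 windows of the same length. The ETS core GGAA, which is contained in CCGGAAGT, was added after this result. It was present at least once, on either strand, in 96.0% of all windows, with a median of 3 per window. The windows of Dusp6, Spry2, Spred1, Fgfr2 and Fgf4 held 6, 5, 5, 4 and 0 cores. Etv5 has 2 annotated starts, whose windows held 0 and 6 cores. At least 6 cores were found in 15.7% of all windows and at least 5 in 28.6%. The 250 bases before each start are shown for Dusp6 and Spry2, which were higher in G34R cells, and for the 2 starts of Etv5, which was lower, with GGAA and its complement TTCC in capitals. They are chr10:99262981-99263230 (plus strand) for Dusp6, chr14:105896820-105897069 (minus strand) for Spry2, and chr16:22439571-22439820 and chr16:22438369-22438618 (minus strand) for Etv5. The counts above are for the full windows, and cores not wholly before the start are not shown. The printed bases hold 6 cores for Dusp6, 3 for Spry2, and 0 and 4 for Etv5.
Dusp6: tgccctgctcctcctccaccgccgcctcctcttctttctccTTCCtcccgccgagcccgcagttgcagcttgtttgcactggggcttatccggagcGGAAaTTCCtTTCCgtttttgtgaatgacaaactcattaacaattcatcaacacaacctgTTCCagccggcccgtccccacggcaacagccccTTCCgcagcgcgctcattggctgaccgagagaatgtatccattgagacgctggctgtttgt
Spry2: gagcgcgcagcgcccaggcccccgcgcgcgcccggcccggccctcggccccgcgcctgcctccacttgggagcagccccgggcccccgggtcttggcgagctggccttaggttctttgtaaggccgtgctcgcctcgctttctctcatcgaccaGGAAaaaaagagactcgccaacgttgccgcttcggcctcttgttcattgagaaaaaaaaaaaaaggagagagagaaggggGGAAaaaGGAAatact
Etv5, first window: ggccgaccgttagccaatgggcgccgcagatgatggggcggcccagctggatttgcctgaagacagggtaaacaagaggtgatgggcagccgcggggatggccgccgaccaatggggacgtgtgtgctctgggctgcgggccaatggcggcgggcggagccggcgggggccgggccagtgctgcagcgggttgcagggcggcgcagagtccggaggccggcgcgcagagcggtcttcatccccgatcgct
Etv5, second window: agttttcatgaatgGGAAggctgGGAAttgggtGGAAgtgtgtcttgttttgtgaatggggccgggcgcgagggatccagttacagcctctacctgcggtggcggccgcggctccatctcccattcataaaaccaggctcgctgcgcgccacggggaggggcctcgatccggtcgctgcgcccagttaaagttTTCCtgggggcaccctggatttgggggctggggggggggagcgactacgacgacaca

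Markers of cell states were read beside these values. Of 11 pluripotency genes found, 9 were lower in G34R cells, against 5877 of all 10728 compared genes. More than 2-fold lower were 4 of the 11, against 6.35% of all compared genes. The 4 included Zfp42 (180.30 RPKM in WT, 16.40 in G34R) and Nanog (127.07 and 52.24 RPKM). The 9 included Pou5f1 and Esrrb, which were nearly equal in both (log2 ratio -0.04 each). The 2 higher genes were Klf4 (25.14 and 43.71 RPKM) and Sox2, the latter nearly equal in both. Of 13 primitive endoderm genes found, 12 were higher in G34R cells, against 4824 of all 10728 compared genes. The summed RPKM of the 13 was 65.45 in WT and 105.06 in G34R cells. This sum came mainly from matrix genes such as Sparc (31.72 and 53.36 RPKM), while the defining factors Gata6 (0.30 and 1.09 RPKM) and Gata4 (0.50 and 1.18 RPKM) were low in both. Of 7 primed epiblast genes found, 5 were lower, not far from the share of all compared genes, with summed RPKM of 51.64 and 41.09. Markers of mesoderm (8 found, 7 higher) summed to 1.05 and 2.69 RPKM, mainly from Eomes (0.43 and 1.88 RPKM). The other 7 were below 1 RPKM in both libraries, and the counting intervals of T, Mesp1, Cdx2 and Wnt3 included 0. Trophoblast markers (7 found, 4 lower, near the share of all compared genes) summed to 20.74 and 11.12 RPKM. Neural markers (7 found, 3 lower and 2 higher) summed to 37.15 and 27.69 RPKM. The neural sum hides opposite values of Tubb3 (35.58 and 8.36 RPKM) and Olig2 (0.03 and 17.71 RPKM). Fibroblast markers, which feeder cells would carry, summed to 1.99 RPKM in WT and 1.08 RPKM in G34R cells, and Dcn, Lum and Postn were listed at 0 in both. The part of these states in the values of the 10 genes was not tested. With 1 library per line, an effect of the mutation, a difference between clones and a difference between cultures cannot be told apart.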

How the data were processed

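Stranded 50 bp single-end reads were aligned by the authors to mm9 with STAR 2.4.2a and counted strand-specifically in Seqmonk over mRNAs with isoforms merged, and RPKM per gene, corrected for transcript length, were deposited to 2 decimals for each library. RPKM is relative to the library's own total. No counts were used, and no statistical test was possible with 1 library per cell line.

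The members and gene lists were chosen with earlier results of these data known. Both tables were joined by position and name, and 26030 of 26127 rows matched a GENCODE M1 gene (mm9). Log2 ratios used a pseudocount of 0.01 RPKM, and genes needed at least 1 RPKM in 1 library. Depth was estimated from 667 single-exon genes under 800 bp, using values of fewer than 6 reads. The exon union of GENCODE M1 may differ from the length Seqmonk used, which would shift estimated reads but not ratios. Named genes were the members, their paralogues, genes past 2-fold (at most 5) and the most abundant gene of each list, kinase and GTPase genes of the cascade, and up to 3 abundant or defining markers. Some genes that this rule names are not reported here. The scripts were checked on simulated data. Other pseudocounts, filters, scalings and thresholds were tried. Tables were handled with pandas 2.3.3 and NumPy 2.4.6 under Python 3.11.15, intervals came from SciPy 1.17.1, and plots from matplotlib 3.10.9.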

Additional observations from a re-analysis of the deposited data

How the results depend on the processing

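No paired analysis was possible because each cell line had 1 library. Dusp6, Etv4 and Spry2 were more than 2-fold higher in G34R cells under every other pseudocount, filter and scaling tried, and Spry4 joined them with RPKM rescaled to the same sum or centred on the median of all genes or of its chromosome. With a threshold of 1.5-fold, 5 members were higher (Spred1 and Spry4 in addition) and 1 was lower (Etv5), against 11.3% and 13.99% of all compared genes. At 3-fold Dusp6 and Etv4 were left, against 1.56% of all compared genes. The median log2 ratio of the members was 0.91 with at least 5 RPKM, which leaves out Fgfr2 and Egr1, 0.69 centred on each chromosome and 0.66 centred on all compared genes. Of the single members, Fgfr1 alone changed sign, to -0.26 when centred on its chromosome. The neighbours of Fgfr1 (median -0.31) did not share the median of 0.36 of that chromosome. The number of other pathway genes more than 2-fold higher was 7 of 59. It moved to 11 of 90 with no filter, 3 with at least 5 RPKM, 4 with a pseudocount of 1 RPKM and 18 at 1.5-fold. The share of all genes in these 4 settings was 5.54%, 3.09%, 1.83% and 11.3%. Fewer than 59 other pathway genes passed the filter of 5 RPKM, and more than 59 passed that of 0.25 RPKM. Counts at these filters are thus not out of 59. The number lower moved from 2 of 59 to 10 of 90 with no filter, 5 with at least 0.25 RPKM and 1 with at least 5 RPKM. Of all genes, 11.7%, 9.44% and 4.02% were lower in these settings, so 10 of 90 was near the share of all genes. These moves follow from which genes pass the filter or threshold and from the shrinking of low ratios by a pseudocount. No setting stands in for replicate libraries.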
